A study of Caenorhabditis elegans with 12 samples.

Results

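The F-box B (*fbxb-*) and F-box C (*fbxc-*) genes of *C*. *elegans* were read out of an RNA-seq comparison of wild-type and *mdt-15(-)* worms at a high and a low temperature. Members were the genes whose name in the authors' deposited tables starts with *fbxb-* or *fbxc-*. This gave 32 genes of 12749, of which 11 were F-box B and 21 were F-box C genes. The wild type was Bristol N2, and *mdt-15(-)* carried the reduction-of-function allele *tm2182* in a gene for a subunit of Mediator, the coactivator complex that links transcription factors to RNA polymerase II. Synchronized day 1 adults, fed OP50 bacteria, were cultured at 15 °C or at 25 °C. Each of the 4 groups (wild type at 15 °C, wild type at 25 °C, *mdt-15(-)* at 15 °C and *mdt-15(-)* at 25 °C) had 3 libraries of RNA from whole worms, described as independent biological repeats, which made 12. All *mdt-15(-)* worms came from 1 outcrossed strain, so the allele and any other difference between that strain and N2 cannot be told apart.

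F-box proteins are the substrate receptors of SCF ubiquitin ligases. In these complexes the F-box binds a Skp1-related adaptor (SKR proteins in *C*. *elegans*), which joins it to the cullin CUL-1 and the RING protein RBX-1, and the rest of the F-box protein selects the target that is marked for degradation. Nematodes have a very large and fast-evolving set of F-box genes. F-box B proteins pair the F-box with an F-box-associated type 2 domain, and the targets of most members are not known.

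The authors' deposited tables held limma fits of voom log2 cpm (read counts scaled to the library total) for 3 comparisons, and gave no values for single libraries, whose depth is thus unknown. Values below are therefore group levels, estimated on the log2 cpm scale from these fits, and log2 fold changes with the standard error (SE) recovered from limma's moderated t. Signs are 15 °C minus 25 °C for temperature and *mdt-15(-)* minus wild type for the mutant. Following the study, a gene was called higher or lower when its fold change was over 1.5 and its unadjusted p was below 0.05, and the Benjamini-Hochberg adjusted p over all genes is given beside it. Over all genes the SE had a median of 0.45 in the temperature comparison, and of 0.44 (15 °C) and 0.45 (25 °C) in the mutant comparisons. The *mdt-15* gene itself could not check the labels, with log2 fold changes of -0.997 (SE 1.66) at 15 °C and -1.57 (SE 1.88) at 25 °C. *fat-7*, a fatty acid desaturase gene known to depend on MDT-15, had log2 fold changes of -9.79 (SE 0.80) at 15 °C and -5.82 (SE 0.79) at 25 °C, and was thus lower in the groups labelled as mutant. Markers of intestine, muscle, epidermis and neurons were present in the tables for every gene listed, as a whole-worm sample should give.

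Most annotated F-box B and C genes were not among the genes analysed here. Ensembl release 115 (WBcel235, the assembly that ce11 also names) has 104 genes named *fbxb-* and 48 named *fbxc-*, of which 93 and 27 were not in the tables, which hold genes past the authors' minimum of 1 cpm. Of the 32 members, 19 lie on chromosome II, where most genes of both families are. It holds 58 of the 104 annotated F-box B and 35 of the 48 annotated F-box C genes. *fbxb-96* and *fbxc-18* were missing from the table at 15 °C, so 30 members could be followed through all 4 groups. The symbols of 28 members are the same in the annotation and in the tables. *fbxc-46* is annotated as a pseudogene by the authors. Reads were not stated to be counted by strand, and *fbxb-100*, *fbxb-24* and *fbxc-47* overlap another annotated gene, so their values may include reads of that gene.

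The F-box C genes included abundant transcripts, whereas the F-box B genes were close to the limit of detection. Averaged over the 12 libraries, F-box B genes ranged from -1.11 to 1.79 log2 cpm with a median of -0.27, and 9 of 11 were under 1. F-box C genes ranged from -0.91 to 5.96 log2 cpm with a median of 1.75, and 5 of 21 were under 1. The median over all 12749 genes was 2.85. *fbxc-44* (chromosome II, 4236504 to 4237751) was the most abundant member, with 5.77 log2 cpm in wild type and 5.64 in *mdt-15(-)* at 15 °C and with 6.22 and 6.19 at 25 °C. *fbxc-50* (chromosome II, 3246316 to 3248123) followed with 5.52 and 5.01 log2 cpm at 15 °C and 6.05 and 5.65 at 25 °C. Both were a little lower at 15 °C in both genotypes, by amounts that did not pass the test. In wild type the log2 fold change was -0.45 (SE 0.32) for *fbxc-44* and -0.53 (SE 0.33) for *fbxc-50*.

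*fbxc-32*, *fbxc-45* and *fbxc-42* were next, at an average of 4.14, 3.79 and 3.30 log2 cpm. The differences between the 4 group levels of each stayed within 1 log2 unit. For these 5 abundant genes, none of the 3 comparisons made by the authors nor the 2 derived from them gave a call. *fbxc-45* came closest in *mdt-15(-)* at 25 °C, at -0.56 (SE 0.21, limma adjusted p = 0.296), a fold change just under the limit of 1.5. Per kilobase of exon, *fbxc-44* (5.98), *fbxc-50* (5.41), *fbxc-32* (3.74) and *fbxc-45* (3.68) kept this order on the log2 cpm per kb scale. *fbxc-46* came next at 3.13 and is named here because of its value.

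**Figure D1:**
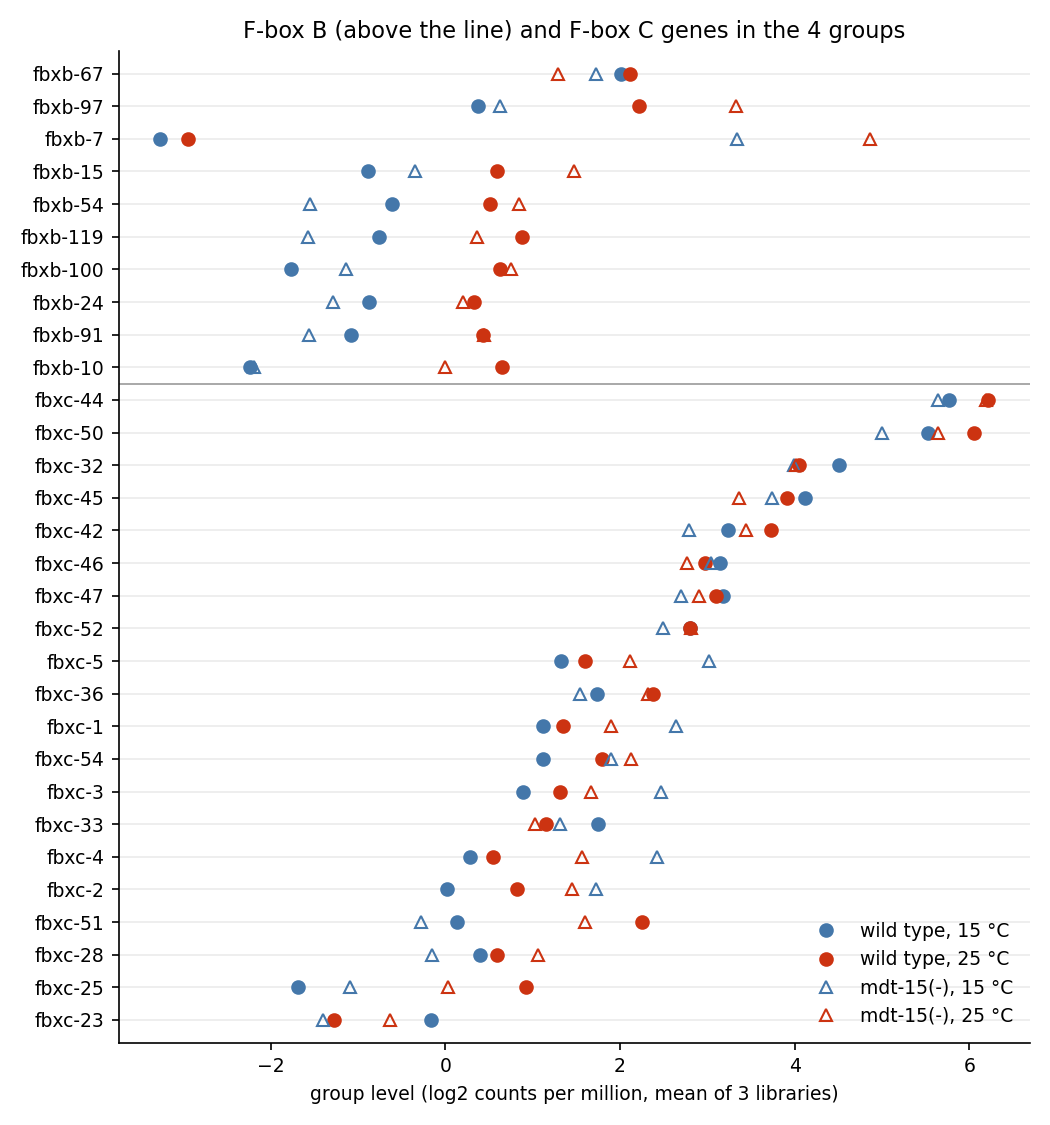
Estimated group levels (log2 cpm, means of 3 libraries) of the 30 members in all 3 tables, with circles for wild type, triangles for *mdt-15(-)*, blue for 15 °C and red for 25 °C. For most F-box B genes above the line the blue symbols lie left of the red ones in both genotypes, and *fbxb-7* has its circles near -3 and its triangles at 3.34 and 4.86.

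Culture at 15 °C was compared with 25 °C in wild type to ask which members followed temperature. Of the 32 members, 10 were lower and 1 was higher at 15 °C, whereas among all genes tested 6.18% were lower and 3.19% were higher. F-box B genes made up most of the lower members. All 11 had a log2 fold change below 0, with a median of -1.51 against 0.04 for all genes, and 7 of 11 were called lower and 0 higher. Among genes with an average under 1 log2 cpm, the range in which most F-box B genes lie, 7.57% were called lower and the median log2 fold change was 0.08. With limma's adjusted values 0 members were called, where 0.926% of all genes were lower and 0.314% higher, so all 11 calls rest on the unadjusted threshold.

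*fbxb-10* (chromosome II) fell most, from 0.65 log2 cpm at 25 °C to -2.23 at 15 °C, a log2 fold change of -2.88 (SE 0.74, limma Benjamini-Hochberg adjusted p = 0.116). *fbxb-100* (chromosome I) went from 0.63 to -1.76 log2 cpm, a log2 fold change of -2.39 (SE 0.61, limma adjusted p = 0.117). *fbxb-97* (chromosome II), the F-box B gene with the smallest p, went from 2.22 to 0.38 log2 cpm, a log2 fold change of -1.84 (SE 0.45, limma adjusted p = 0.102). The 95% interval of each of these differences lay below 0, and reached from -4.52 to -1.24 for *fbxb-10* and from -2.84 to -0.85 for *fbxb-97*. *fbxb-96*, which lies 1.2 kb from *fbxb-97*, was lower by -1.99 (SE 0.51) as well. *fbxb-119*, *fbxb-91* and *fbxb-15* were called lower with log2 fold changes of -1.63, -1.51 and -1.48. *fbxb-24* (-1.20, SE 0.57) and *fbxb-54* (-1.12, SE 0.54) were below 0 but missed the threshold, with limma adjusted p of 0.516 and 0.525. Only *fbxb-7* (-0.32, SE 1.01) and *fbxb-67* (-0.10, SE 0.53), the second named here after its value was seen, had an F-box B difference smaller than its own standard error.

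The filter on low values bears on these counts. In 7 of the 10 F-box B genes with group levels, the level was above 0 log2 cpm (1 cpm) in wild type at 25 °C and below it at 15 °C, and in 0 it was the other way around. A gene at such levels can enter the tables through its 25 °C libraries alone, so the counts describe the F-box B genes that passed the filter and not the family. Among all 12443 genes with group levels, 569 crossed 1 cpm downward and 530 upward from 25 °C to 15 °C in wild type. With the minimum of the average raised to 1 log2 cpm, 1 member, *fbxb-97*, was still called lower.

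F-box C genes behaved less uniformly with temperature. In wild type 3 of 21 were lower and 1 was higher at 15 °C, with a median log2 fold change of -0.28. *fbxc-25* dropped from 0.92 to -1.69 log2 cpm, a log2 fold change of -2.61 (SE 0.74, limma adjusted p = 0.158). *fbxc-51* dropped from 2.25 to 0.14 log2 cpm, a log2 fold change of -2.11 (SE 0.62, limma adjusted p = 0.177), and *fbxc-18* was lower by -1.58 (SE 0.66). *fbxc-33* was the gene called higher, at 1.75 against 1.15 log2 cpm, a log2 fold change of 0.60 (SE 0.25, limma adjusted p = 0.410) that lay just past the fold limit. Across the 32 members the lower the average level, the more negative was the temperature effect, with Pearson's r of 0.52 and Spearman's rho of 0.59. Across all genes Pearson's r was -0.04. Genes are not independent replicates, and all points come from the same 6 libraries for the effect. The average includes these 6 libraries, so a gene that falls at 15 °C also gets a lower average. The filter on low values bears on the relation too. Part of it can thus be built in, and these values are only a description.

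**Figure D2:**
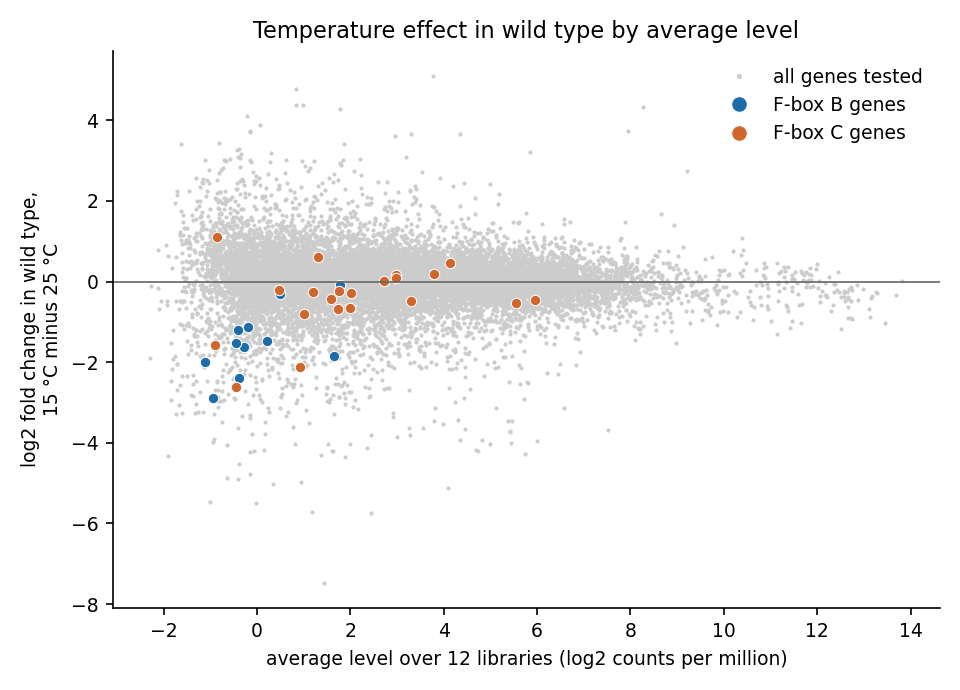
Average level over the 12 libraries (log2 cpm, horizontal axis) against the log2 fold change in wild type, 15 °C minus 25 °C (vertical axis), for all 12749 genes in grey, F-box B genes in blue and F-box C genes in orange. All 11 F-box B genes lie below 0, and the abundant F-box C genes lie close to it.

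For *mdt-15(-)*, the estimate of the temperature effect comes from the 6 mutant libraries, while its SE, p and calls use a variance that the fit shares over all 12 libraries. Of 30 members, 11 were lower and 3 were higher at 15 °C in *mdt-15(-)*, while 5.86% of all genes were lower and 12.9% higher. F-box B genes were lower in 9 of 10 cases with a median log2 fold change of -1.92, where 7.87% of genes with an average under 1 log2 cpm were called lower. Of the 9, *fbxb-24* (-1.49, SE 0.62) overlaps *faah-4* on the opposite strand, whose average was 5.06 log2 cpm. *faah-4* was called lower too, at -1.30 (SE 0.31) in *mdt-15(-)* and -0.72 (SE 0.30) in wild type, so the value of *fbxb-24* may include its reads. *fbxb-97* went from 3.33 log2 cpm at 25 °C to 0.63 at 15 °C, a log2 fold change of -2.70 (SE 0.44), with an adjusted p of 0.0117 over all genes on limma's degrees of freedom. *fbxb-15* went from 1.48 to -0.34 log2 cpm, a log2 fold change of -1.82 (SE 0.42, limma-based adjusted p = 0.045). These 2 members passed the adjusted threshold in this direction, as did 1.2% of all genes. *fbxb-54* was at -2.38 (SE 0.63, limma-based adjusted p = 0.0623) and *fbxb-10* at -2.20 (SE 0.80). *fbxb-67* was the exception among F-box B genes, at 0.45 (SE 0.56).

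F-box B genes called lower in wild type at 15 °C were lower in *mdt-15(-)* too. All 6 that were called in wild type and tested in the mutant were called lower there. The estimates of both effects come from different libraries, but the calls do not, since the fit pools 1 variance per gene over all 12 libraries. Of all genes called lower in wild type and tested in the mutant, 317 of 779 (40.7%) were called lower in both, and 121 of 241 (50.2%) of those with an average under 1 log2 cpm. The filter on low values bears on both comparisons. *fbxb-100* was at -2.39 in wild type and -1.89 in *mdt-15(-)*, *fbxb-91* was at -1.51 and -2.01, and *fbxb-119* was at -1.63 and -1.94. The difference of the *mdt-15(-)* effects between temperatures, which equals the difference between these values, was not called for any F-box B gene. Its 95% interval reached from -1.68 to 1.00 for *fbxb-15* and from -2.64 to 2.01 for *fbxb-119*, wide enough to include differences of a size similar to the temperature effects.

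**Figure D3:**
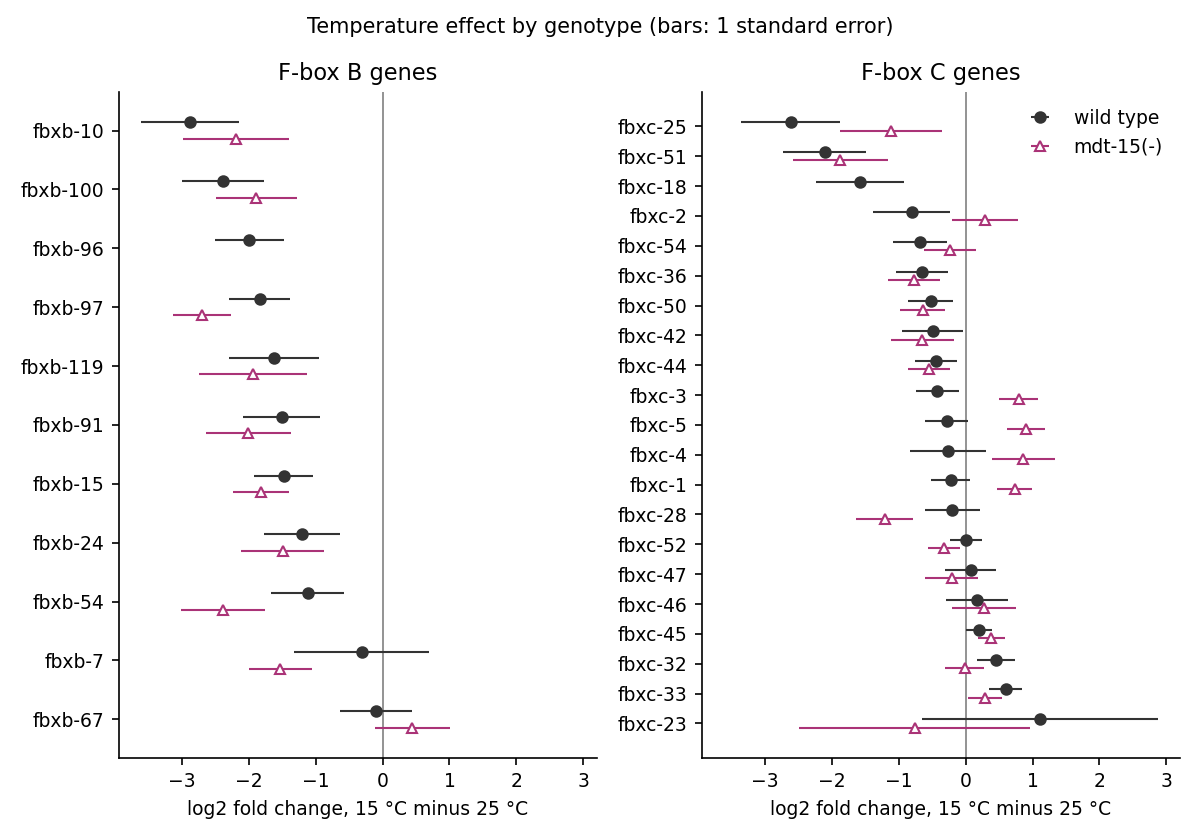
Log2 fold change, 15 °C minus 25 °C, for each F-box B gene (left) and F-box C gene (right) in wild type (filled circles) and in *mdt-15(-)* (open triangles), with bars of 1 SE. In the F-box B panel the symbols of both genotypes lie left of 0 for all genes but *fbxb-67*, whereas *fbxc-1*, *fbxc-3*, *fbxc-4* and *fbxc-5* have wild-type values of -0.42 to -0.22 and mutant values of 0.74 to 0.90.

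Among F-box C genes *fbxc-51* was lower at 15 °C in *mdt-15(-)* as well, at -1.87 (SE 0.71, limma-based adjusted p = 0.160), while *fbxc-25* was at -1.12 (SE 0.76) and was not called. *fbxc-28* was called lower in the mutant at -1.21 (SE 0.43) and was at -0.20 (SE 0.41) in wild type. The test of that difference gave -1.01 (SE 0.59, limma-based adjusted p = 0.760) and did not pass. The 3 F-box C genes that were higher at 15 °C in *mdt-15(-)*, *fbxc-1*, *fbxc-3* and *fbxc-5*, belong to a tandem repeat described below.

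Several of the lower members had neighbours that were lower too. Within 25 kb of the 10 members called lower in wild type, 49 other genes were in the table, and 9 of them (18.4%) were also called lower against 6.18% of all genes. *fbxb-15* (chromosome II, 1652455 to 1653497) accounted for 4 of these, among its 6 tested neighbours. *ZC204.12*, 2.78 kb away, had a log2 fold change of -3.64 (SE 0.44, limma adjusted p = 0.00547), and *C08E3.13*, 20.1 kb away, had one of -4.78 (SE 0.63, limma adjusted p = 0.00734). Both exceeded the change of *fbxb-15* itself (-1.48). *ZC204.12* went from 5.10 to 1.46 log2 cpm in wild type. *C08E3.13* went from 1.32 to -3.46 log2 cpm, near the lowest levels of all genes. The size of its fold thus depends on the small value that voom adds to each count. The filter on low values bears on such neighbours too. *C52E2.4*, 0.74 kb from *fbxb-97*, was at -1.75 (SE 0.38).

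Cell type markers were read beside these results, since RNA came from whole worms, where fewer cells of a type and less RNA per cell cannot be told apart. Of 8 early embryo markers, 4 were in the tables (*end-1*, *end-3*, *tbx-37* and *pha-4* were not), and their summed level was 5.90 cpm at 25 °C and 5.28 cpm at 15 °C in wild type and 6.70 and 2.53 cpm in *mdt-15(-)*. At 15 °C 1 of these 4 was called lower in wild type (*ceh-51*, -2.12) and 2 were called lower in *mdt-15(-)*. In wild type 3 of the 4 were below 0, with *hlh-1* at -0.71 (SE 0.71) and *pes-10* at -0.42 (SE 0.49). The wild-type sum changed little because *elt-7* went the other way, from 0.27 to 1.55 log2 cpm (1.28, SE 1.18). In *mdt-15(-)* all 4 were below 0. The 5 intestine markers summed to 5984 cpm at 25 °C and 4184 cpm at 15 °C in wild type and to 5745 and 3137 cpm in *mdt-15(-)*, and 2 of 5 and 3 of 5 were called lower. The yolk protein genes *vit-6* and *vit-2*, at 11.74 and 11.30 log2 cpm in wild type at 25 °C, made up nearly all of this sum. The calls in wild type were *ges-1* (-0.76, SE 0.20) and *vit-6* (-0.64, SE 0.26). Those in *mdt-15(-)* were *ges-1* (-0.60, SE 0.20), *vit-6* (-0.88, SE 0.26) and *vit-2* (-0.87, SE 0.29). *pho-1* was at 0.06 (SE 0.40) in wild type and -0.07 (SE 0.43) in *mdt-15(-)*. *elt-2* was at -0.23 (SE 0.37) and 0.10 (SE 0.35), and neither *pho-1* nor *elt-2* was called. The part of these cell types in the temperature effect of the F-box B genes was not tested.

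Next, *mdt-15(-)* was compared with wild type at each temperature to ask which members depended on *mdt-15*. At 15 °C, 6 of 30 members were higher (20%) and 0 were lower, where 17.3% of all genes were higher and 5.76% lower. Of genes with an average under 1 log2 cpm, 28.0% were higher and 4.87% lower. The share of higher members was thus near that of all genes when each gene is counted. At an adjusted p below 0.05, 5 were higher, where 5.23% of all genes were. The 6 were *fbxb-7* and 5 F-box C genes of a tandem repeat, so both shares would be lower with the repeat taken as a single locus. Outside this repeat 0 of 15 F-box C genes were called, and their log2 fold changes lay between -1.24 and 0.78 with a median of -0.42. At 25 °C, 3 of 32 members were higher and 0 were lower, where 5.85% of all genes were higher and 3.72% lower. Of genes with an average under 1 log2 cpm, 8.96% were higher there. All 3 higher members were F-box B genes, and *fbxb-7* alone had an adjusted p below 0.05, as 1.83% of all genes had in that direction.

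*fbxb-7* (chromosome V, 17377406 to 17379233, plus strand, 2 exons) had the largest difference of all members. Its estimated level was -3.26 log2 cpm in wild type at 15 °C and -2.95 at 25 °C. In *mdt-15(-)* it was 3.34 log2 cpm at 15 °C and 4.86 at 25 °C. The mutant groups were thus far above both wild-type groups. The log2 fold change was 6.60 at 15 °C (SE 0.81, 95% interval 4.80 to 8.39, limma adjusted p = 0.000895) and 7.81 at 25 °C (SE 0.75, 95% interval 6.14 to 9.48, limma adjusted p = 0.000302). These folds are not bounds. Only 49 of 12443 genes were at or below the wild-type level of *fbxb-7* at 15 °C and 43 at 25 °C, levels at which a fitted fold change depends on the small value that voom adds to each count. At such levels in wild type the gene entered the tables through the mutant libraries.

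The effect on *fbxb-7* was called at both temperatures, and its difference of -1.21 (SE 1.11, limma-based adjusted p = 0.876) did not pass. Within *mdt-15(-)*, *fbxb-7* was lower at 15 °C by 1.53 on the log2 scale (SE 0.47, limma-based adjusted p = 0.0909). Of the 10 F-box B genes with group levels, it had the highest level in *mdt-15(-)* and the lowest in wild type at both temperatures. *F47H4.2*, 17.2 kb away, was its only neighbour within 25 kb in the tables and was higher in *mdt-15(-)* too, by 3.38 (SE 0.45, limma adjusted p = 0.00135) at 15 °C and 3.18 (SE 0.43, limma adjusted p = 0.00221) at 25 °C. The estimated wild-type levels of *F47H4.2*, -3.45 and -2.97 log2 cpm, were as low as those of *fbxb-7*, and its mutant levels were -0.07 and 0.21. Like *fbxb-7* it passed the filter through the mutant libraries, which favours this direction, and its folds are not bounds.

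The other F-box B genes called at 25 °C differed less. *fbxb-97* was at 3.33 log2 cpm in *mdt-15(-)* and 2.22 in wild type, a log2 fold change of 1.11 (SE 0.39, limma adjusted p = 0.249). *fbxb-15* was at 1.48 and 0.60 log2 cpm, a log2 fold change of 0.88 (SE 0.36, limma adjusted p = 0.398). At 15 °C their log2 fold changes were 0.25 (SE 0.49) and 0.54 (SE 0.48), and the difference between temperatures did not pass for either, with limma-based adjusted p of 0.833 and 0.926. These are the same 2 genes whose temperature effect passed the adjusted threshold in *mdt-15(-)*, and both values rest on the same *mdt-15(-)* libraries at 25 °C.

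**Figure D4:**
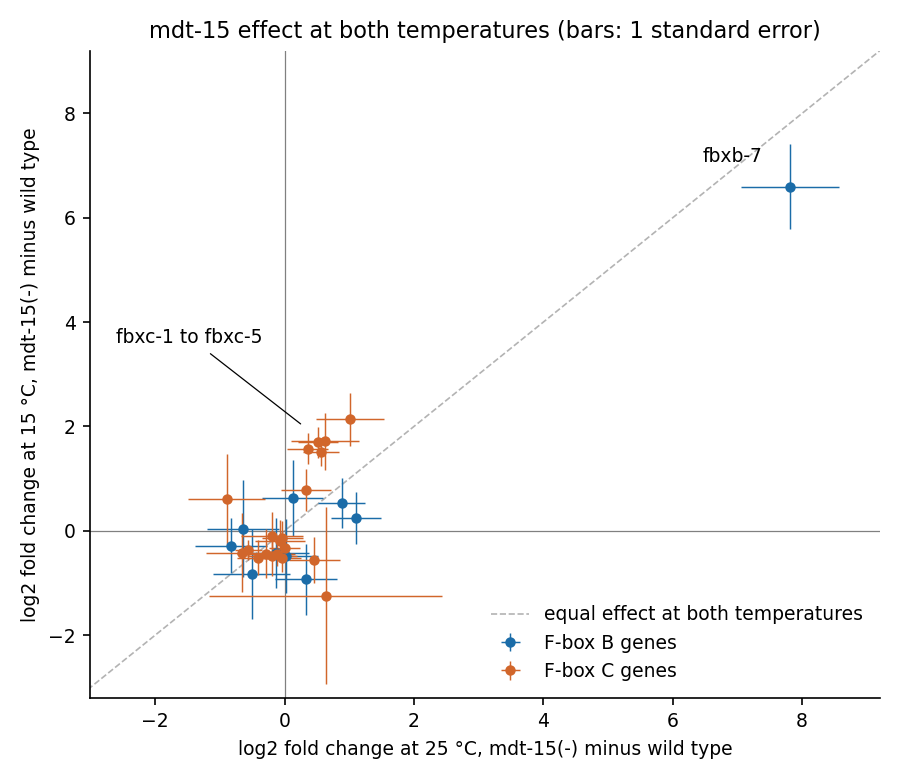
Log2 fold change of *mdt-15(-)* against wild type at 25 °C (horizontal axis) and at 15 °C (vertical axis) for the 30 members in all 3 tables, with bars of 1 SE and a dashed line of equal effects. *fbxb-7* lies apart at 7.81 and 6.60, *fbxc-1* to *fbxc-5* lie above the dashed line at 1.52 to 2.14 at 15 °C, and the other members lie around 0.

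The 5 F-box C genes that were higher in *mdt-15(-)* at 15 °C form a tandem repeat of loci with the same gene structure on chromosome IV, called copies here, and their sequences were not compared. In the order *fbxc-1*, *fbxc-2*, *fbxc-4*, *fbxc-5* and *fbxc-3* they run on the plus strand from 891239 to 909223, a span of 17.985 kb. Each copy has 1376 bases and 3 exons of 1128 bases in all, the exon positions within the gene are the same in all 5, and copies start 4152 or 4153 bases apart. A second F-box gene of 1781 or 1782 bases follows each copy, and none of these 5 was in the tables. The annotation names *fbxc-1* as *fbxc-5* and *fbxc-2* and *fbxc-3* as *fbxc-4*. If their sequences are near-identical, reads could be assigned to any of them, so their values are uncertain one by one. Counts of members include each copy that was called, but the copies are not independent results.

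All 5 copies gave similar values. In wild type their levels ranged from 0.02 to 1.32 log2 cpm at 15 °C and from 0.55 to 1.61 at 25 °C. In *mdt-15(-)* they ranged from 1.73 to 3.02 log2 cpm at 15 °C and from 1.45 to 2.12 at 25 °C. At 15 °C each copy was thus higher in *mdt-15(-)*, by 1.52 for *fbxc-1* (SE 0.27, limma adjusted p = 0.00732), 1.71 for *fbxc-2* (SE 0.54, limma adjusted p = 0.0836) and 2.14 for *fbxc-4* (SE 0.51, limma adjusted p = 0.0321). *fbxc-5* was higher by 1.70 (SE 0.30, limma adjusted p = 0.00684) and *fbxc-3* by 1.58 (SE 0.30, limma adjusted p = 0.0117). At 25 °C the log2 fold changes were 0.36 to 1.01 and 0 of 5 was called, with limma adjusted p from 0.609 to 1.00.

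For 3 of the copies the effect of *mdt-15(-)* at 15 °C exceeded that at 25 °C before adjustment. Among all genes 5.29% had a difference called higher and 1.64% one called lower. The difference was 0.96 for *fbxc-1* (SE 0.39, limma-based adjusted p = 0.711), 1.22 for *fbxc-3* (SE 0.44, limma-based adjusted p = 0.706) and 1.18 for *fbxc-5* (SE 0.43, limma-based adjusted p = 0.709). It was 1.09 (SE 0.75) for *fbxc-2* and 1.13 (SE 0.73) for *fbxc-4*, which were not called. No member's difference passed the adjusted threshold, which 0.0964% of all genes did in this direction. The copies were the only members called for this difference, and they are not independent results. *mak-2*, a gene for a protein kinase 1.04 kb before the first copy, was at 0.38 (SE 0.23) at 15 °C and 0.13 (SE 0.24) at 25 °C and was not called.

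**Figure D5:**
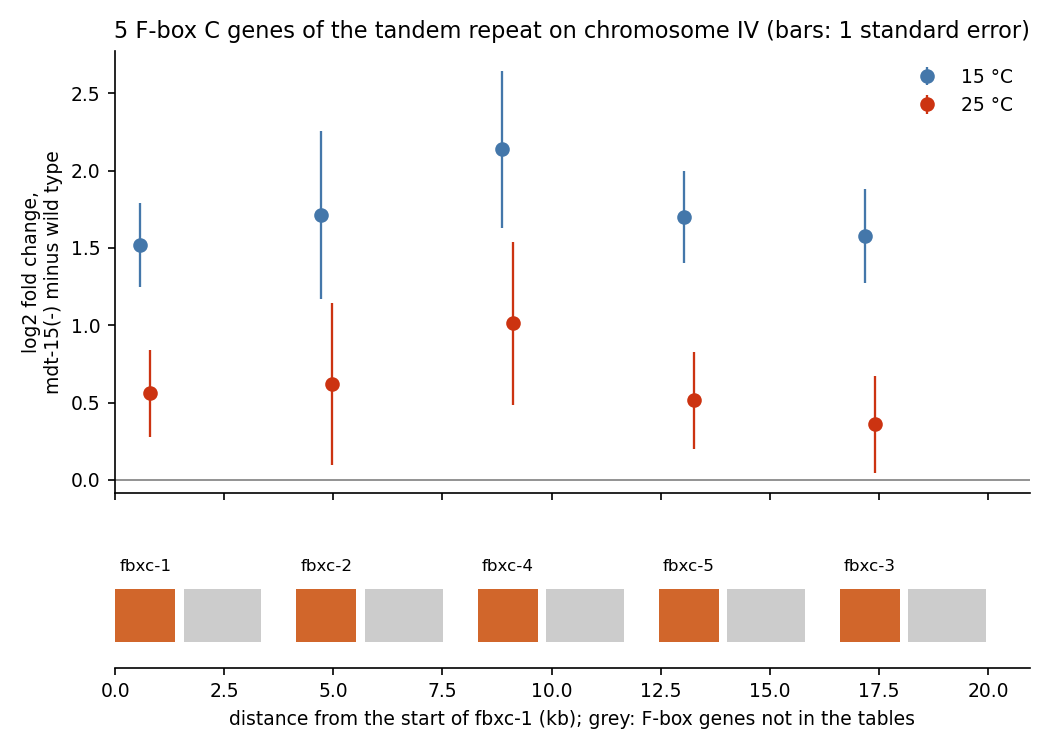
Log2 fold change of *mdt-15(-)* against wild type at 15 °C (blue) and 25 °C (red) with bars of 1 SE for the 5 copies on chromosome IV, above a map of the repeat by distance from the start of *fbxc-1* (kb), where orange bars are the copies and grey bars the F-box genes not in the tables. The blue points lie between 1.52 and 2.14 and the red points between 0.36 and 1.01.

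Markers of sperm, muscle and epidermis, like these loci, had their highest summed level in *mdt-15(-)* at 15 °C. Of 8 sperm markers 7 were in the tables (*spe-9* was not), and their summed level was 271 cpm at 25 °C and 367 cpm at 15 °C in wild type and 159 and 994 cpm in *mdt-15(-)*. At 15 °C all 7 had a log2 fold change above 0 in *mdt-15(-)*, with a median of 1.58, and 3 of 7 were called higher, 0 of them with an adjusted p below 0.05. At 25 °C the median was -0.38 and 0 was called. The 4 muscle markers summed to 400.0 cpm at 25 °C and 398 cpm at 15 °C in wild type and to 332 and 579 cpm in *mdt-15(-)*. All 4 had a log2 fold change above 0 in *mdt-15(-)* at 15 °C, and the muscle myosin gene *myo-3* was called higher at 1.31 (SE 0.27, limma adjusted p = 0.0169). The 4 epidermis markers summed to 18.6 and 16.1 cpm in wild type and to 18.6 and 27.1 cpm in *mdt-15(-)*, and 0 of 4 was called. *rol-6* had the largest part of the last sum, at 3.76 log2 cpm, with a log2 fold change of 1.65 (SE 1.28) at 15 °C. *rol-6* and *dpy-7* had their highest level in *mdt-15(-)* at 15 °C, but *elt-3* and *lin-26* did not. *elt-3* was at 2.84 log2 cpm there and 2.92 in wild type at 15 °C. *lin-26* was at 1.83 there and 2.84 in *mdt-15(-)* at 25 °C. The 9 markers of oocytes and germ line had a median of -0.71 in *mdt-15(-)* at 15 °C, and 5 of 9 were called lower. The part of these tissues in the values of *fbxc-1* to *fbxc-5* was not tested.

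F-box A genes, the related family with the most genes in the tables, were read side by side. In wild type at 15 °C 21 of 107 F-box A genes (19.6%) were lower and 4 (3.74%) higher, against 6.18% and 3.19% of all genes, with a median log2 fold change of -0.27. In *mdt-15(-)* at 15 °C 51 of 104 (49.0%) were higher and 7 (6.73%) lower, against 17.3% and 5.76% of all genes, with a median of 0.92. At 25 °C 22 of 107 (20.6%) were higher and 2 (1.87%) lower, against 5.85% and 3.72% of all genes. The median in *mdt-15(-)* at 15 °C was -0.12 for F-box B genes and -0.26 for F-box C genes. The families were not tested against each other, and the comparisons share wild-type libraries.

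The partners of F-box proteins were read from a list of 43 genes of the SCF ligase and its regulators, of which 40 were in the tables. In wild type 5 of 40 (12.5%) were lower at 15 °C and 0 higher, against 6.18% and 3.19% of all genes, with a median of -0.09. All 5 were Skp1-related adaptor genes, which make up a large part of the list. *skr-10* went from 4.90 to 2.74 log2 cpm, a log2 fold change of -2.17 (SE 0.80, limma adjusted p = 0.338). *skr-8* was at -2.64 (SE 1.18), *skr-4* at -1.22, *skr-13* at -1.15 and *skr-21* at -1.06. Several *skr* genes are close paralogs, so their reads may be split between them. In *mdt-15(-)*, 6 of 40 (15%) were lower and 2 (5%) higher at 15 °C, against 5.86% and 12.9% of all genes. Of the 5 called in wild type, *skr-10* (-1.77, SE 0.76) and *skr-21* (-1.83, SE 0.30) were lower again, and *skr-8* (-2.52, SE 1.22), *skr-13* (-0.96, SE 0.47) and *skr-4* (-0.28, SE 0.48) were not called. The other 4 lower genes in *mdt-15(-)* were the adaptor genes *skr-9* (-3.01), *skr-12* (-1.62, SE 0.62) and *skr-16* (-0.83, SE 0.27) and the ubiquitin-conjugating enzyme gene *ubc-3* (-0.81, SE 0.22), and the 2 higher genes were *skr-3* (0.83, SE 0.25) and *skr-5* (1.48, SE 0.38).

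The SCF genes that were higher in *mdt-15(-)* were also adaptors, the group that makes up a large part of the list. *skr-3*, *skr-4* and *skr-5*, which are known as adaptors of a ligase with the cullin CUL-6 in the worm's response to intracellular pathogens, were the 3 of 40 (7.5%) called higher at 15 °C, and they were called higher at 25 °C as well. Of all genes 17.3% were called higher at 15 °C and 5.85% at 25 °C, so the share of the list was below that of all genes at 15 °C and near it at 25 °C. *skr-5* was at -3.42 log2 cpm in wild type at 15 °C and at 3.82 in *mdt-15(-)*, and at -2.95 and 2.35 at 25 °C. Its log2 fold change was 7.25 (SE 0.62, limma adjusted p = 0.000100) at 15 °C and 5.30 (SE 0.60, limma adjusted p = 0.000936) at 25 °C. As for *fbxb-7*, the wild-type level was near the lowest in the tables, and these folds are not bounds. *skr-4* was higher by 2.31 (SE 0.53) and 1.37 (SE 0.50), and *skr-3* by 1.65 (SE 0.25) and 0.62 (SE 0.26). The core subunits were not called. *cul-1* was at -0.90 (SE 0.45, limma adjusted p = 0.241) at 15 °C and -0.51 (SE 0.44) at 25 °C, and *rbx-1* was at -0.50 (SE 0.29) and -0.14 (SE 0.29). *sel-10*, an F-box gene that acts in Notch signalling, was the only SCF gene called lower in the mutant, at 25 °C, by -2.07 (SE 0.59, limma adjusted p = 0.121).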

How the data were processed

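Total RNA of 12 libraries was sequenced as paired-end reads. Per the labels, the authors used HISAT2 (2.0.5) with ce11, StringTie (1.3.3) and Ballgown, left out genes with a cpm under 1, and fitted voom values with limma (3.24.15) and edgeR (3.10.5). Which gene annotation they took was not given in the sources used here. Each deposited table holds log2 fold changes, log2 averages, t scores of limma and p-values, unadjusted and adjusted, for 12749, 12749 and 12443 genes. These are columns of the authors' own comparisons, and no value per library was used, so no count test was run and depth per library is unknown. With 3 libraries a group, p-values rest on 1 variance per gene, pooled over the 12 libraries and moderated by limma. They do not measure the spread of the compared groups alone.

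SE was the log2 fold change divided by t, and 10.4 degrees of freedom were recovered from t and p. The difference between temperatures used the summed variances. For temperature in *mdt-15(-)* the variances of all 3 comparisons were combined. Both tests were two-sided with Benjamini-Hochberg adjustment over 12443 genes, tested on simulated data first. The direction of the tables was checked by the signs of 332 genes in the study's lists (332 of 332 for temperature and for the mutant at 15 °C) and by *fat-7* at 25 °C. Group levels were solved from a gene's average and its fold changes, and the voom weights make them approximate.

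Genes were named by a rule: members past the threshold, the 5 most abundant, the 3 with the largest t of the difference, and up to 6 SCF genes per comparison. Close pairs by protein identity were not sought, since no protein sequence was used here. Members and lists were chosen with earlier results of these data known. Alternatives were adjusted p, a fold limit of 2, an average of at least 1, errors 1.2 times as large, centring and protein-coding genes only. Scripts ran under Python (3.11.15) with scipy (1.17.1), numpy (2.4.6), pandas (2.3.3) and matplotlib (3.10.9). No sequences were used here.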

Additional observations from a re-analysis of the deposited data

Results flagged for a closer look

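The effect of *mdt-15(-)* differed between temperatures, before adjustment, for 3 members, all copies of the tandem repeat on chromosome IV. The log2 fold change at 15 °C minus that at 25 °C was 0.96 for *fbxc-1*, 1.22 for *fbxc-3* and 1.18 for *fbxc-5*, by a test of the difference itself on limma's degrees of freedom. Their Benjamini-Hochberg adjusted p was 0.711, 0.706 and 0.709. Reads may be shared between the copies, whose sequences were not compared, so these are not counted as 3 independent results.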

How the results depend on the processing

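Counts of members called were recomputed under 6 alternatives. With adjusted p below 0.05 in place of the unadjusted p, the temperature effect in wild type gave 0 higher and 0 lower members, that in *mdt-15(-)* 0 higher and 2 lower (*fbxb-97* and *fbxb-15*), *mdt-15(-)* at 25 °C 1 higher (*fbxb-7*) and the difference between temperatures 0 higher. With an average of at least 1 log2 cpm, members lower at 15 °C were 1 in wild type and 1 in *mdt-15(-)*, and 1 (*fbxb-97*) was higher in *mdt-15(-)* at 25 °C, since *fbxb-7* itself averaged under this minimum. The median of F-box B genes for temperature in *mdt-15(-)* was then -1.13, over the 2 members left. The 1 member higher in wild type (*fbxc-33*) was lost, leaving 0, with a fold limit of 2, with errors 1.2 times as large and with centring. A fold limit of 2 left 0 members higher at 15 °C in *mdt-15(-)*. The remaining counts, all of those for *mdt-15(-)* at 15 °C among them, stayed within 1.5 times, and protein-coding genes only changed none. No direction was reversed. For values of named genes, adjusted p ended 30 calls and larger errors ended 9, and centring ended that of *fbxc-33*. The median over all genes was shifted by at most 0.05.

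No paired analysis was possible because the tables hold no value per library, and leaving out each replicate was not run for the same reason. How far a single library sets any value, including those of *fbxb-7*, is therefore unknown. Depth limits the low genes most, since 14 of 32 members averaged under 1 log2 cpm.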
